A study of Mus musculus with 8 samples.

Results

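The passage of mouse testis from postnatal day 12 (P12) to postnatal day 18 (P18) was described in libraries that carry the Alkbh5 transcript. ALKBH5 is an enzyme that removes the N6-methyladenosine (m6A) mark from RNA. The 4 libraries were the P18 samples with an Alkbh5 level above 1 FPKM and the wild-type (WT) samples at P12, out of 8 in the series. FPKM is the number of fragments scaled by gene length and by library depth, so it can be compared between genes. The P18 libraries are the one labelled WT, replicate 2, with 9.07 FPKM of Alkbh5 (3489 counts), and the one labelled Alkbh5 knockout (KO), replicate 1, with 17.9 FPKM (7800 counts). The P12 libraries are both labelled WT and had 10.2 and 17.8 FPKM (3888 and 6746 counts). The other P18 libraries, WT replicate 1 at 0.00985 FPKM and KO replicate 2 at 0.155 FPKM, lay below the threshold. Alkbh5 chose the libraries, so its level is a description and was not tested.

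The study sequenced poly(A) RNA of whole testis from WT and Alkbh5-null male mice, with 2 libraries for each genotype and age. Its stated aim is the role of ALKBH5 in spermatogenesis. The submitters describe P12 testis as rich in leptotene and zygotene spermatocytes and P18 testis as rich in pachytene and diplotene spermatocytes. Neither the strain nor the animal behind each library is labelled, so p-values measure only the spread between these libraries. Below, P18 values are those of the WT-labelled and then of the KO-labelled library, and P12 values those of WT replicates 1 and 2.

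In leptotene and zygotene, meiotic chromosomes are broken, searched for homology and aligned. In pachytene they are fully joined by the synaptonemal complex, crossovers mature, and the X and Y chromosomes are held silent in the sex body. The same cells transcribe much of what the later spermatid needs, such as tail and acrosome proteins, and store part of it. In the mouse these transitions occur in the first, nearly synchronous wave of spermatogenesis, so testis age stands in for the most advanced germ cell stage. In whole testis, fewer cells of a type and less RNA per cell cannot be told apart.

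Alkbh5 went against the genotype label in 2 of the 4 P18 libraries: KO replicate 1, used here, carried the transcript, and WT replicate 1, not used here, was near 0. Whether these were exchanged was not tested, so WT-labelled and KO-labelled name a library and not a known genotype. Both P18 libraries used here also carried transcripts of another tissue. Total counts were 59151494 and 66080256 at P18 and 58732528 and 58417668 at P12. On the log2(FPKM + 1) scale the P18 libraries correlated at r = 0.972 across genes and the P12 libraries at 0.991, against 0.698 to 0.819 between ages, which describes genes of shared libraries and not replicates. Of the 4 libraries the KO-labelled P18 library was the highest for all 25 genes of a hepatocyte list, and there their FPKM summed to 352, against 18.7 in the WT-labelled P18 library and 23.3 and 24.2 at P12. The other KO-labelled P18 library, without Alkbh5, had a like sum of 343, and the other WT-labelled one 28.7, so at P18 the liver transcripts went with the KO label and not with the Alkbh5 level. Albumin (Alb) stood at 119 FPKM in KO replicate 1, 0.169 in the WT-labelled P18 library and 0.241 and 0.15 at P12. Crisp1, an epididymis gene, had 36.8 FPKM in the WT-labelled P18 library and 0 in the other 3. Of the 25 hepatocyte genes 5 passed the filter described below and 0 were called by edgeR, and 5 were called higher without the WT-labelled P18 library. The part of these transcripts in other results was not tested.

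The P18 libraries differed from the P12 libraries in 51.9% of the genes tested. Of 15912 genes with at least 1 FPKM in at least 2 of the 4 libraries, Alkbh5 left out, 4600 rose (28.9%) and 3658 fell (23.0%) at P18 in the edgeR quasi-likelihood test at an adjusted p under 0.05. In each called gene the P18 and P12 libraries did not overlap, which held for 41.0% of tested genes in the higher and 42.4% in the lower direction. Of the genes tested, 1264 lay below 1 FPKM in both P12 libraries and passed the filter only through P18. For these, and for genes that passed only through P12, the adjusted p is no separate support for a change. A stricter count took called genes whose normalized count in each P18 library was at least 2-fold beyond both P12 libraries. This held for 2468 genes that rose (15.5%) and 355 that fell (2.23%). A test against a 2-fold change (glmTreat) called 1973 higher (12.4%) and 87 lower (0.547%). More genes thus rose than fell by over 2-fold. Without P12 replicate 1 the calls numbered 2896 higher and 853 lower, and without P12 replicate 2 they numbered 3100 and 1032. Fewer genes were called in both directions over all genes without either P12 library. Smaller counts of called list members in such fits are thus not read as particular to a list. With a P18 library left out, the stricter count can hold genes to the remaining P18 library only. For those fits it is thus not read as a change in both P18 libraries.

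The choice of scaling moved the balance of the calls. With trimmed mean of M-values (TMM) scaling 55.7% of calls were higher and the median log2 change of all genes was -0.03. With total counts alone 41.0% were higher (3632 higher, 5219 lower) and the median was -0.27. The genes that rose in the stricter count held 17.02 and 22.93% of all counts at P18, against 4.12 and 4.53% at P12. Directions of single gene lists are given relative to all genes where they hang on this choice.

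The P18 libraries did not move by the same amount. For the 2468 genes the median log2 level above the P12 mean was 2.68 in the WT-labelled library and 3.30 in the KO-labelled one, and 161 of them were higher in the WT-labelled library. The P18 libraries without Alkbh5 stood at 0.17 (WT replicate 1) and 0.22 (KO replicate 2) for the same genes, as a description, since the genes were chosen on the other libraries. Comparing the P18 libraries with the WT label against the P12 libraries with the WT label set 1 library with and 1 without the Alkbh5 transcript against P12, and called 0 genes higher and 0 lower by edgeR, with 1265 at an unadjusted p under 0.05.

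Genes of spermatogonia, the mitotic germ cells, were mostly lower at P18. Of 24 genes on the list 22 were tested. Of these 17 fell (77.3%, against 23.0% of all genes) and 1 rose. The median log2 change was -0.79 against -0.03 over all genes. Neurog3, a gene of spermatogonia committed to differentiate, had 0.405 and 0.311 FPKM at P18 and 1.27 and 1.5 at P12 (log2 -1.70 ± 0.29 SE, n = 2 per age, edgeR adjusted p = 0.00893). Ret, the receptor subunit for the niche factor GDNF, had 1.19 and 1.0 FPKM at P18 and 3.13 and 2.77 at P12 (-1.17 ± 0.16, adjusted p = 0.00518). Its co-receptor Gfra1 had 0.789 and 1.13 FPKM at P18 and 2.74 and 2.39 at P12 (-1.14 ± 0.29, adjusted p = 0.0261). Sohlh1, a transcription factor of differentiating spermatogonia, fell by 1.16 (adjusted p = 0.0323). The call of both was lost without P12 replicate 1 (adjusted p = 0.0955 for Gfra1 and 0.0689 for Sohlh1) and without P12 replicate 2 (0.0553 and 0.0625).

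Id4 went the other way. This inhibitor of helix-loop-helix factors marks undifferentiated spermatogonia in the mouse, and it had 9.49 and 9.68 FPKM at P18 and 1.60 and 2.19 at P12 (log2 2.6 ± 0.21, adjusted p = 0.00274). Both P18 libraries were far above both P12 libraries, the only member of the list for which a rise was called. Relative to all genes the spermatogonial median was -0.76. It was -0.73 without P12 replicate 1 and -0.86 without P12 replicate 2. Fewer spermatogonial genes were called lower in both of these fits, as over all genes. Against a 2-fold change the number called lower was 0.

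Genes of early meiotic prophase, which make and process the DNA breaks, split in direction. Of 24 genes 11 rose (45.8%, against 28.9% of all genes) and 3 fell (12.5%, against 23.0%). The median was 0.15, or 0.17 above all genes, and turned to -0.09 with total counts alone, where 9 rose and 7 fell. Stra8, quoted like Prdm9 for its role, starts meiosis. It had 39.8 and 28.0 FPKM at P18 and 68.7 and 74.1 at P12 (log2 -0.83 ± 0.14, adjusted p = 0.00851). Prdm9, which marks the sites of breaks, had 9.51 and 7.44 FPKM at P18 and 11.6 and 11.9 at P12, and was not called (-0.22 ± 0.11, adjusted p = 0.146). These genes act first, and neither was higher at P18.

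The members with the largest rise act together with the strand exchange machinery or on the breaks themselves. Psmc3ip (HOP2), which helps recombinases to exchange strands, had 53.7 and 56.1 FPKM at P18 and 13.3 and 17.2 at P12 (log2 2.11 ± 0.18, adjusted p = 0.00276). Spo11, the break-forming enzyme itself, had 28.4 and 26.7 FPKM at P18 and 9.07 and 10.2 at P12 (1.77 ± 0.11, adjusted p = 0.00261). Brme1 and Hsf2bp, which form a complex with BRCA2, rose by 1.73 ± 0.17 and 1.47 ± 0.16, and the helicase-like gene Mcmdc2 by 1.54 ± 0.18. Brme1 is listed by its older name 4930432K21Rik. Members called lower numbered 8 without the WT-labelled P18 library and 1 without each of the P12 libraries, and members called higher 8 without P12 replicate 1.

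Crossover and synaptonemal complex genes were mostly higher, by modest amounts. Of 14 crossover genes tested 9 rose (64.3%, against 28.9% of all genes) and 1, the X-linked Tex11, fell (median 0.53). Cntd1, which is needed to mature crossovers, had 37.1 and 43.3 FPKM at P18 and 6.51 and 9.46 at P12 (log2 2.6 ± 0.25, adjusted p = 0.00303), and its partner Prr19 had 22.3 and 34.6 against 5.34 and 6.16 (2.59 ± 0.31). The mismatch repair family members Mlh3 (1.44 ± 0.17) and Msh4 (1.31 ± 0.18) rose too. Of 13 synaptonemal complex and meiotic cohesin genes 9 rose (69.2%, against 28.9% of all genes) and 0 fell (median 0.82). Syce1 of the central element had 124 and 163 FPKM at P18 and 43.8 and 42.6 at P12 (2.01 ± 0.22), and Sycp2 of the lateral element 119 and 132 against 53.3 and 61.3 (1.40 ± 0.16). Without P12 replicate 1, 6 crossover and 3 synaptonemal genes were called higher, and without P12 replicate 2, 5 and 3.

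Regulators of the germ cell programme moved in both directions. Of 24 such genes 23 were tested, with a median of 0.50. Of these 12 rose (52.2%, against 28.9% of all genes) and 7 fell (30.4%, against 23.0%). Whether these shares differ was not tested. Rfx2, a winged-helix factor for genes of cilia and tails in mouse spermatids, had 23.5 and 34.4 FPKM at P18 and 2.07 and 2.82 at P12 (log2 3.84 ± 0.32, adjusted p = 0.00276). Its relative Rfx4 had 8.87 and 12.3 FPKM at P18 and 0.198 and 0.858 at P12 (4.6 ± 0.73, adjusted p = 0.00771). Rfx4 passed the filter only through P18. Dmrtb1, which coordinates entry into meiosis, had 64.6 and 129 FPKM at P18 and 13.4 and 13.2 at P12 (3.16 ± 0.42).

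Sox30 (log2 2.57 ± 0.30) and Mybl1 (1.60 ± 0.24) rose as well. Both are required for the pachytene programme in mice, and Mybl1 encodes A-MYB. Tcfl5, another factor of pachytene cells, rose by 2.55 ± 0.26, and Crem, an activator of spermatid genes, by 2.53 ± 0.23. The 7 that fell were Sohlh1, Lhx8, Zfp711, Patz1, Taf7l, E2f1 and Taf4b, by 0.45 to 1.16. Of these 7 Zfp711 alone kept its call whichever library was left out, and adjusted p values reached 0.248 for E2f1. Mybl1, Tcfl5, Crem and this last group were quoted for their role or after their values were seen. Spz1 stood at 1.04 and 2.78 FPKM at P18, with 0 counts and 1 count in the P12 libraries. Among the 21 regulators with at least 1 FPKM in both P12 libraries 10 rose and 7 fell, with a median of -0.04. Lower calls numbered 1 without P12 replicate 1 and 3 without P12 replicate 2.

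**Figure D1:**
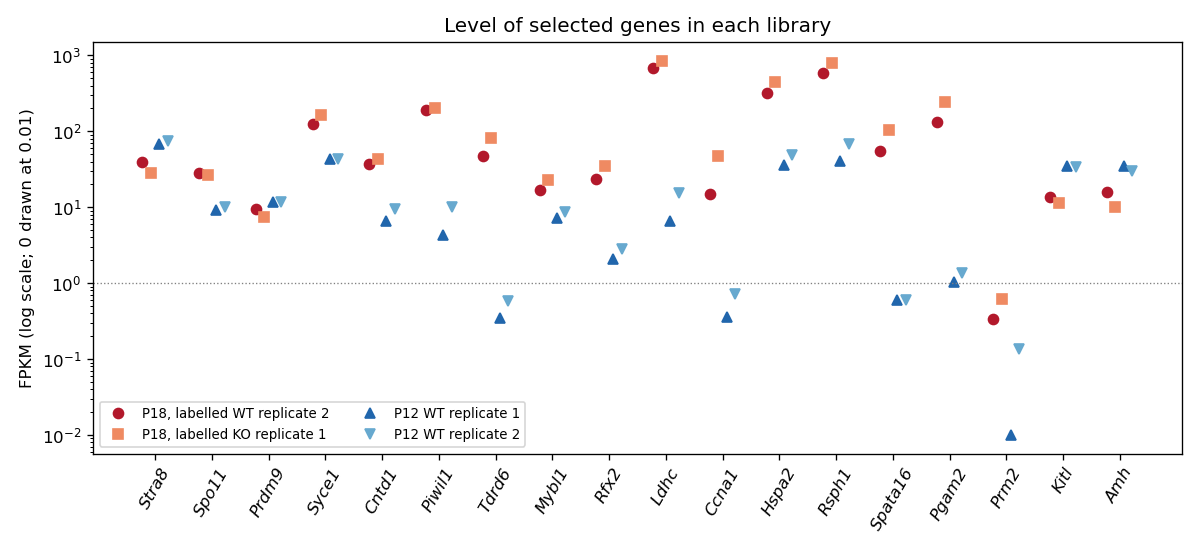
FPKM of 18 genes on a log axis, with 1 marker per library; P18 libraries are left of P12 libraries for each gene, and the dotted line is 1 FPKM. Stra8, Kitl and Amh are lower at P18, Prdm9 is close to its P12 level, Tdrd6, Spata16 and Pgam2 differ most between ages among the 17 genes that passed the filter, and Prm2 stays below 1 FPKM in all 4 libraries.

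Genes named for pachytene and diplotene spermatocytes rose in nearly all cases. Of 34 genes 32 were tested, 28 rose, 27 of them past 2-fold in both P18 libraries, and 1 fell, Cdc25c (log2 -0.76 ± 0.20). The share that rose was 87.5%, against 28.9% of all genes, and the median was 3.22. Of the 27 members with at least 1 FPKM in both P12 libraries, which passed the filter at either age, 23 rose. Ldhc, the lactate dehydrogenase of germ cells, had 672 and 841 FPKM at P18 and 6.55 and 15.2 at P12 (6.39 ± 0.53, adjusted p = 0.00276), among the most abundant transcripts of the P18 testis. Adam3, a sperm surface protein, had 70.7 and 146 FPKM at P18 and 0 and 0.125 at P12. Spink2, a protease inhibitor of the acrosome, had 111 and 159 FPKM at P18 and 0.647 and 1.26 at P12 (7.39 ± 0.45).

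Strong rises were also seen for members that act in energy supply and in the cell cycle. Pgk2, a glycolytic enzyme encoded by a retrogene, had 24.4 and 58.7 FPKM at P18 and 0.209 and 0.192 at P12 (log2 7.97 ± 0.69, adjusted p = 0.00279). Ccna1, the cyclin needed for the end of meiotic prophase in mouse males, had 14.7 and 47.1 FPKM at P18 and 0.354 and 0.717 at P12 (6.14 ± 0.83, adjusted p = 0.00547). The KO-labelled library was the higher of the P18 libraries for both. Pgk2 and Ccna1 passed the filter only through P18. The fall of Cdc25c was not called in the absence of P12 replicate 1 or replicate 2 (adjusted p up to 0.145).

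The piRNA pathway, which makes small RNAs that restrain transposons and, from pachytene on, a large class from dedicated loci, rose as a group. Of 27 genes 22 rose (81.5%, against 28.9% of all genes) and 1 fell, with a median of 1.47. Piwil1 (MIWI), the Argonaute protein of pachytene piRNAs, had 193 and 203 FPKM at P18 and 4.35 and 9.98 at P12 (log2 5.05 ± 0.47, adjusted p = 0.00290). Tdrd6, a scaffold of the chromatoid body, had 46.8 and 82.7 FPKM at P18 and 0.347 and 0.578 at P12 (7.40 ± 0.53, adjusted p = 0.00266). Tdrd6 passed the filter only through P18. Tdrd5 had 32.2 and 33.0 FPKM at P18 and 4.55 and 5.62 at P12 (2.94 ± 0.16). Pld6 (2.38 ± 0.11), which cuts piRNA precursors at the mitochondrial surface, and Tdrd1 (2.34 ± 0.14) rose about equally. The only gene that fell was Piwil4 (-0.90 ± 0.25), which in mouse is used in fetal germ cells, and its call was lost without the KO-labelled P18 library or either P12 library (adjusted p up to 0.158).

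Genes of the meiotic divisions, which lie ahead of most cells at P18, were already higher in part. Of 28 genes 16 rose (57.1%, against 28.9% of all genes) and 4 fell (14.3%, against 23.0%), with a median of 0.69. Meikin, which protects sister kinetochores and cohesin in the first division, had 11.8 and 14.7 FPKM at P18 and 1.02 and 1.81 at P12 (log2 3.49 ± 0.37, adjusted p = 0.00341). Fbxo43, an inhibitor of the anaphase-promoting complex, had 9.45 and 12.9 FPKM at P18 and 0.958 and 1.03 at P12 (3.76 ± 0.27). The chaperone Hspa2, which the mouse needs for CDK1 activity at the end of prophase, had 323 and 444 FPKM at P18 and 36.4 and 48.1 at P12 (3.46 ± 0.29). Aurkc (2.97 ± 0.35) and the CDK1 inhibitor Pkmyt1 (1.98 ± 0.17) also rose. Cdk1 itself had 10.8 and 10.4 FPKM at P18 and 10.03 and 11.5 at P12 and was not called. Leaving out P12 replicate 1 gave 9 higher and 0 lower, and leaving out P12 replicate 2 gave 11 and 0.

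**Figure D2:**
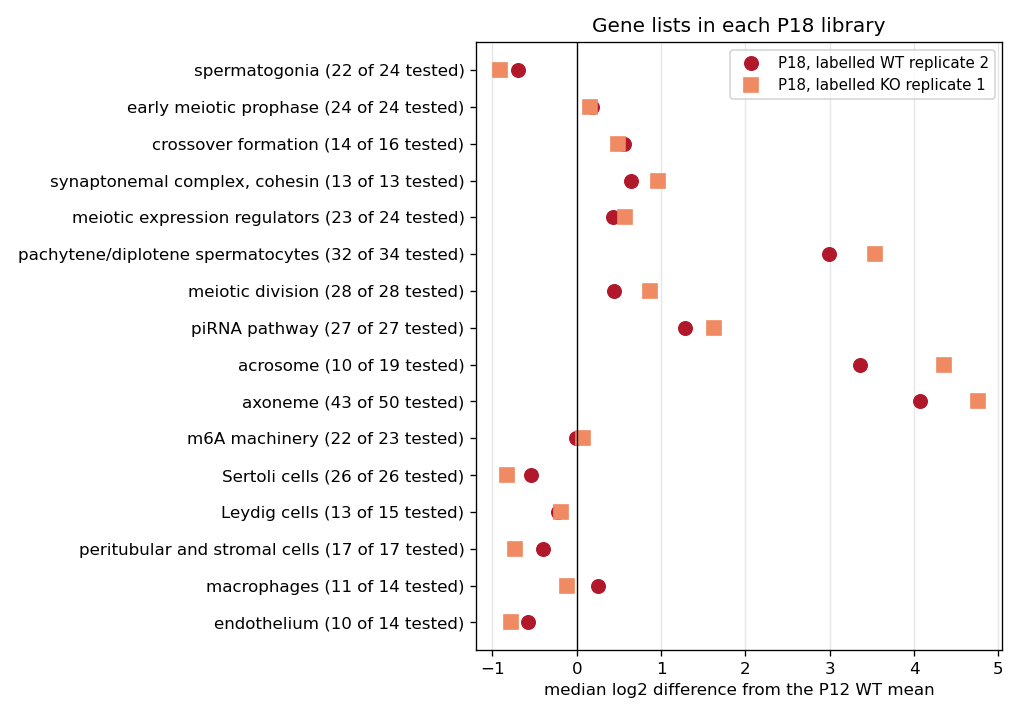
Median log2 difference of each gene list from the mean of the P12 WT libraries, on normalized counts, with 1 marker for each P18 library. Axoneme, acrosome and pachytene/diplotene genes lie at 2.99 or above in both P18 libraries, over tested members. Of these, 16 of 43 axoneme, 3 of 10 acrosome and 4 of 32 pachytene/diplotene genes passed the filter only through P18. Spermatogonial, Sertoli, Leydig, peritubular and endothelial genes lie below 0 in both P18 libraries.

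Genes of the axoneme, the microtubule core of the sperm tail, gave the largest and most uniform rise of the lists. Of 50 genes 43 were tested, 42 rose past 2-fold in both P18 libraries and 0 fell, with a median of 4.43. Over all genes 15.5% rose past 2-fold in both. All 24 members with at least 1 FPKM in both P12 libraries rose, with a median of 3.97, whereas 16 members passed the filter only through the P18 libraries. Rsph1, of the radial spoke head, had 580 and 798 FPKM at P18 and 40.9 and 67.2 at P12 (log2 3.95 ± 0.36, adjusted p = 0.00289). Cfap206, of the radial spoke base, had 77.5 and 132 FPKM at P18 and 0.687 and 2.07 at P12 (6.52 ± 0.69). Rsph6a had 22.4 and 55.5 FPKM at P18 and 0.227 and 0.238 at P12 (7.66 ± 0.68). The heavy chain of an inner dynein arm, Dnah6, had 6.68 and 11.2 FPKM at P18 and 0.0314 and 0.0597 at P12 (7.87 ± 0.52), and Tekt3 of the inner microtubule wall 18.8 and 43.5 against 0 and 0.0897.

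The rise covered separate parts of the structure and the factors that assemble it. The other dynein genes tested rose by 3.37 (Dnah10) to 6.24 (Dnah17), and the central pair gene Hydin had 7.19 and 11.2 FPKM at P18 and 0.271 and 0.296 at P12 (log2 5.30 ± 0.35). Dnaaf1, which helps to preassemble dynein arms, had 96.1 and 205 FPKM at P18 and 3.28 and 3.97 at P12 (5.67 ± 0.52). Ift88, of the transport complex that many cells use for cilia, rose least, with 23.9 and 24.8 FPKM at P18 and 11.9 and 12.8 at P12 (1.24 ± 0.12). Foxj1, a regulator of motile cilia, had 1.23 and 3.08 FPKM at P18 and 0.987 and 0.530 at P12 and was not called (adjusted p = 0.0600). The 7 members below the filter, among them the fibrous sheath gene Akap4, the outer dense fibre gene Odf1 and Ropn1, reached at most 1.98 FPKM at P18 and 0.483 at P12. Hydin, Dnaaf1, Ift88, Foxj1 and the dynein genes were quoted after their values were seen.

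The promoters of these genes were searched because RFX factors, which include Rfx2 and Rfx4 above, bind an X-box built from copies of GTTGCC. The letters GTTGCC, on either strand, were searched in the 250 bases before the start of each gene in RefSeq (GRCm38.p6). They were found in 10 of 41 axoneme genes with a promoter entry (24.4%), in 254 of 1602 genes that rose past 2-fold in both P18 libraries (15.9%), in 18 of 199 that fell past 2-fold in both (9.05%), in 12.5% of tested genes and in 11.8% of all genes of the table. The 120 bases before the start are printed for 4 genes, picked from 8 because this stretch holds a match. They run 5′ to 3′ on the strand of the gene, with GTTGCC or its reverse complement in capitals.
Hydin, chr8:110266857-110266976, plus strand: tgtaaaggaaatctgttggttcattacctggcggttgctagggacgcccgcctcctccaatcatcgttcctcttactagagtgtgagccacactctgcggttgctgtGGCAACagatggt
Tekt1, chr11:72361883-72362002, minus strand: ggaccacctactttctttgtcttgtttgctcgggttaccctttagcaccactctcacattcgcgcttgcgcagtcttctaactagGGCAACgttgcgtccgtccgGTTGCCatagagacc
Ropn1l, chr15:31453690-31453809, minus strand: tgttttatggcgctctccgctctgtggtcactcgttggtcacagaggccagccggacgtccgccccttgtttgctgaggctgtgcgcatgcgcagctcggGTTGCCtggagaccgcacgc
Spag16, chr1:69826850-69826969, plus strand: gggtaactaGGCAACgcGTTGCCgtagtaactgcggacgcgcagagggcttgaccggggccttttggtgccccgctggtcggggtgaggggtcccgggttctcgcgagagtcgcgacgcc
Tekt1 rose by 5.25 ± 0.58, Ropn1l by 4.62 ± 0.37 and Spag16 by 4.39 ± 0.38 on the log2 scale. Tekt1 and Spag16 hold the letters on both strands within this window. A match is a description of the sequence and not a site of binding. AACNGTT, a spelling of the A-MYB core, was found in 4.81% of the genes that rose and 4.02% of those that fell past 2-fold in both P18 libraries, 3.78% of tested genes and 4.27% of all genes. TGACGTCA, the cyclic AMP response element, was found in 2.31%, 2.51%, 2.96% and 1.77% of the same sets. By list, AACNGTT was found in 4 of 41 axoneme genes (9.76%) and 4 of 24 pachytene and diplotene genes (16.7%). It was found in 0 of 16 acrosome genes and 1 of 21 piRNA genes (4.76%). GTTGCC was found in 4 of 24 pachytene and diplotene (16.7%), 3 of 16 acrosome (18.8%) and 2 of 21 piRNA genes (9.52%). TGACGTCA was found in 1 of 41 axoneme, 1 of 16 acrosome, 0 of 24 pachytene and diplotene and 1 of 21 piRNA genes. AACNGTT and TGACGTCA read the same on both strands, and AACNGTT ends in the first letters of GTTGCC, so that matches of the 2 can overlap.

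Most acrosome genes that were tested rose, and most spermatid genes were too low to test. The acrosome is the vesicle of enzymes at the sperm head. Of 18 acrosome genes measured, 10 were tested, 9 rose and 1 fell, Spaca6 (log2 -1.08 ± 0.11). Over all genes 28.9% rose and 23.0% fell. Spata16, a Golgi protein of acrosome formation, had 55.4 and 104 FPKM at P18 and 0.600 and 0.601 at P12 (7.33 ± 0.49, adjusted p = 0.00261). Acr, the protease acrosin, had 22.1 and 45.3 FPKM at P18 and 0.518 and 0.676 at P12 (6.08 ± 0.54). Zpbp2 (6.04 ± 0.50) and Dpy19l2 (5.78 ± 0.56) rose by similar amounts, and Acrbp, which binds proacrosin, had 26.8 and 56.0 FPKM against 2.38 and 2.44 (4.39 ± 0.47). Spaca6 was quoted after its value was seen. Spata16 and Acr were among the 3 members that passed the filter only through P18. Of 7 members with at least 1 FPKM in both P12 libraries 6 rose, with a median of 0.93.

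Of 26 spermatid genes measured, 19 were below the filter, 6 rose and 0 fell. The 6 were 85.7% of those tested, against 28.9% of all genes. The median log2 change of the 7 tested, of which 3 passed the filter only through P18, was 4.21. It was 2.11 over the 4 with at least 1 FPKM in both P12 libraries. Among the genes below the filter the highest P18 value was 3.44 FPKM, for Gsg1 in the KO-labelled library. The protamine gene Prm2, whose product packs sperm DNA, had 0.336 and 0.611 FPKM at P18 and 0 and 0.135 at P12, and Tnp1 had 0.122 and 0.130 against 0.237 and 0.184. Among the 6 that rose, Pgam2 had 132 and 241 FPKM at P18 and 1.02 and 1.37 at P12 (log2 7.57 ± 0.50). It is a glycolytic enzyme known best from muscle. The flagellar calcium channel gene Catsper2 had 24.1 and 39.2 FPKM at P18 and 3.17 and 3.54 at P12 (3.52 ± 0.34). Tnp2 had 2.03 and 2.93 FPKM at P18 and 0.168 and 0.108 at P12, and Hils1 had 1.03 and 2.46 FPKM at P18 with 0 and 2 counts at P12.

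Genes without a count at P12 led the changes by size. The 12 named genes with the largest fold change had 0 counts in both P12 libraries, so they passed the filter through the P18 libraries. Ldhal6b, a lactate dehydrogenase retrogene (chr17:5417323-5418767 on GRCm38), had 77.5 and 244 FPKM at P18 (7197 and 25623 counts) and was at least 12200-fold higher than a floor of 3 counts over the P12 libraries (adjusted p = 0.00467). Abca14, of the ABC transporter family, had 6.84 and 14.9 FPKM at P18 and was at least 3340-fold higher. Prss39, a testis serine protease, had 7.92 and 30.1 FPKM (at least 1340-fold higher), and Ppp1r42, a regulatory subunit of protein phosphatase 1, had 8.02 and 15.3 (at least 924-fold higher).

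The others of the 12 were Speer1, Speer2, Sel1l2, Ifitm7, Ms4a19, Glipr1l1, Gtsf2 and Tomm20l, at least 194-fold to at least 1700-fold higher. Speer genes have many near-identical copies, so their counts are uncertain. In all, 303 genes lay below 0.1 FPKM in both P12 libraries and at 1 FPKM or more in both P18 libraries, and 0 genes met the reverse. Of the 303, 101 were protein coding and 148 were annotated as long noncoding, antisense or processed transcripts. At least 1 FPKM was reached in neither of the other P18 libraries by 298 of them. Of 484 intergenic noncoding RNA genes tested 288 rose (59.5%, against 28.9% of all genes). Of the 222 with at least 1 FPKM in both P12 libraries 48 rose (21.6%) and 53 fell (23.9%). Of all 14146 tested genes at that level 3183 rose and 3658 fell. Those shares are near, so the counts over the 222 are no result about this class.

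Germ cells replace several broadly used proteins by related ones encoded elsewhere. There were 29 pairs of a germ cell gene and its broadly expressed relative. The germ cell gene rose in 23 and fell in 1, and the broad relative fell in 15 and rose in 5. Over all genes tested 28.9% rose and 23.0% fell. Both happened in 12 pairs, in 5 without P12 replicate 1 and in 3 without P12 replicate 2. The germ cell gene held a larger share of the summed FPKM of the pair in both P18 libraries than in either P12 library in 25 of 29 pairs. It held more than 50% in both P18 libraries for 22 pairs and in both P12 libraries for 6.

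Large exchanges were seen for centrin, A-type cyclin, phosphoglycerate kinase and a proteasome subunit. Cetn1 held 91.9 and 96.1% of its pair with Cetn2 at P18, against 5.63 and 11.7% at P12, where Cetn1 had 89.0 and 131 FPKM at P18 and 0.817 and 1.84 at P12 (log2 6.64 ± 0.52). Ccna1 held 62.5 and 87.5% at P18 against 1.92 and 3.83% at P12, as Ccna1 rose and Ccna2, the mitotic A-type cyclin, fell (-0.96 ± 0.11). Pgk2 held 52.9 and 78.4% at P18 against 0.771 and 0.596% at P12, and its X-linked relative Pgk1 had 21.6 and 16.1 FPKM at P18 and 26.9 and 32.1 at P12 without a call (adjusted p = 0.0691, and 0.0312 without the WT-labelled P18 library). Psma8, the alpha4 subunit of the germ cell proteasome, held 72.3 and 80.0% at P18 against 15.1 and 22.5% at P12.

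Mitochondrial and ribosomal proteins showed exchanges too. Cytochrome c of the testis, Cyct, had 63.8 and 63.3 FPKM at P18 and 8.90 and 10.5 at P12 (log2 2.98 ± 0.16), while the somatic Cycs fell to 37.4 and 27.8 FPKM at P18, against 68.9 and 71.5 at P12 (-0.86 ± 0.12). Rpl10l, a ribosomal protein gene on an autosome, had 185 and 193 FPKM at P18 and 48.8 and 59.4 at P12 (2.07 ± 0.16), and held 69.3 and 79.8% of its pair at P18 against 25.3 and 28.1% at P12. In other pairs both genes rose. Ldha, the somatic partner of Ldhc, had 164 and 210 FPKM at P18 and 17.9 and 21.04 at P12 (3.53 ± 0.23), and Ybx1 rose by 2.22 ± 0.28 beside Ybx2 (3.48 ± 0.31), whose product binds stored mRNA.

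Some pairs did not show the exchange. Gapdhs, the glyceraldehyde-3-phosphate dehydrogenase of sperm, had 2.29 and 2.09 FPKM at P18 and 2.61 and 3.17 at P12, Calr3 had 2.15 and 1.92 against 3.31 and 4.25, and neither was called. Ubl4b was at 0 FPKM in both P18 libraries. The X-linked Taf7l fell (log2 -0.69 ± 0.12), a call lost without P12 replicate 1 (adjusted p = 0.104). Gapdh and the ribosomal and tubulin genes share reads with near-identical copies. With P12 replicate 1 left out the germ cell gene rose in 19 pairs and the broad one fell in 7, and with P12 replicate 2 left out in 19 and 5.

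**Figure D3:**
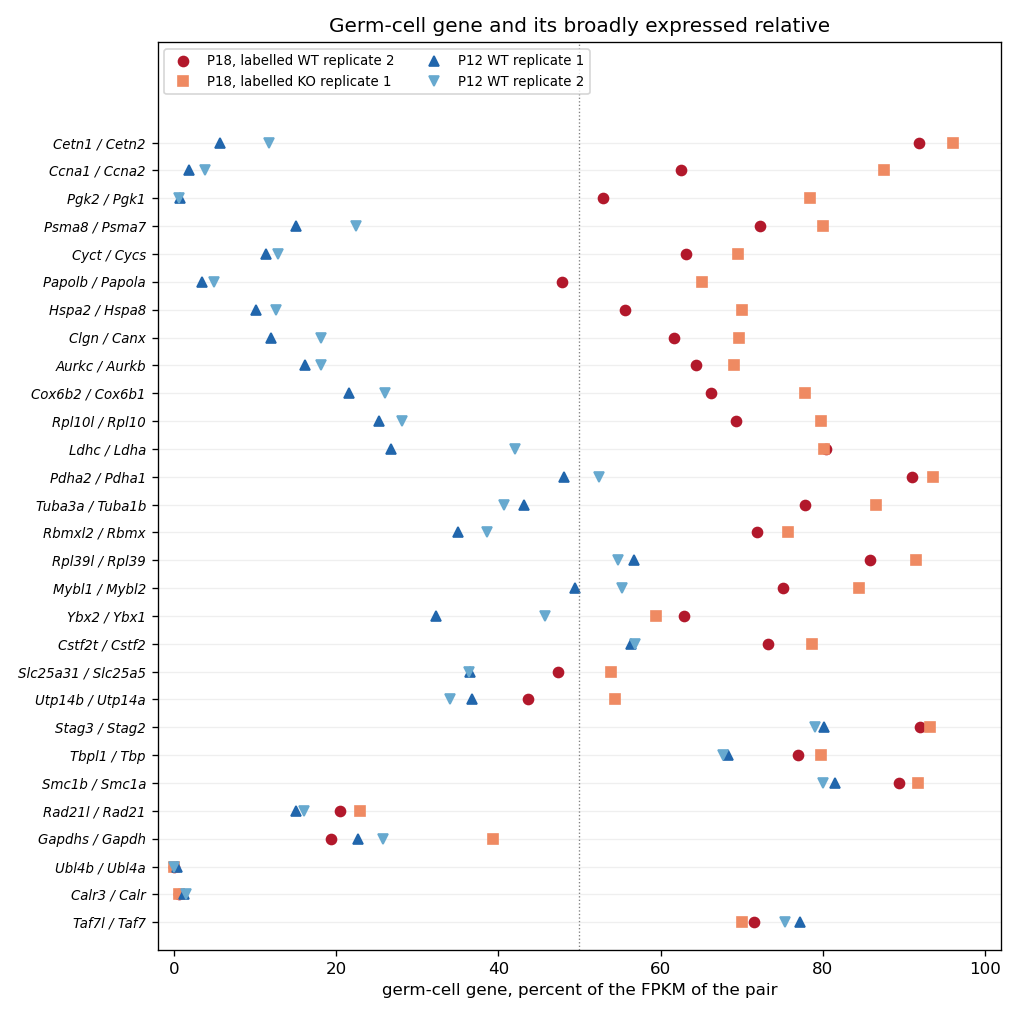
Share of the germ cell gene in the summed FPKM of 29 pairs, in percent, with 1 marker per library and pairs ordered by the difference between the age means. P18 markers lie right of the P12 markers in 25 pairs, and the dotted line marks 50%.

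X-linked genes were lower at P18 as a chromosome. Of 640 tested 381 fell (59.5%) and 17 rose (2.66%), with a median log2 change of -0.63. On the 19 autosomes 19.1 to 24.3% fell, 26.2 to 33.8% rose, and medians ran from -0.06 to 0.08. X-linked genes held 2.33 and 1.81% of all counts at P18, against 3.78 and 3.73% at P12. Of the 28 Y-linked genes 16 fell and 1 rose. The fall was broad and shallow: only 32 X-linked genes fell past 2-fold in both P18 libraries, and 3 were called lower against a 2-fold change.

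Single X-linked genes show the size. Bex2 had 19.1 and 14.4 FPKM at P18 and 70.3 and 62.4 at P12 (log2 -1.74 ± 0.13, adjusted p = 0.00274), one of the most abundant transcripts to fall past 2-fold. Of the 12 pairs above with an X-linked broad member, that member fell in 10 and rose in 0. It fell in 5 without P12 replicate 1 and in 2 without P12 replicate 2. Stag2, the cohesin subunit whose meiotic counterpart is Stag3, had 7.30 and 6.42 FPKM at P18 and 14.0 and 14.3 at P12 (-0.79 ± 0.09), and Rbmx, an RNA-binding protein, had 8.35 and 6.38 against 15.7 and 14.8 (-0.80 ± 0.12). The difference between the X and the autosomal median lay between -0.54 and -0.74 under the alternatives run, except that it was -0.24 in the comparison of the WT-labelled groups. Without P12 replicate 1 this difference was -0.63, and without P12 replicate 2 it was -0.66. Fewer X-linked genes were called lower in both of these fits, as over all genes.

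Of the X-linked genes that rose, the most abundant at P18 was Tsx, a testis gene near the X-inactivation centre, with 66.2 and 51.8 FPKM at P18 and 15.2 and 22.2 at P12 (log2 1.91 ± 0.21, adjusted p = 0.00368). Dmrtc1b had 9.20 and 6.49 FPKM at P18 and 1.93 and 1.83 at P12 (2.30 ± 0.21), and Trpc5os 5.53 and 4.67 against 0.570 and 0.943 (3.0 ± 0.29). All 3 were higher still in the P18 libraries without Alkbh5, where Tsx had 111 FPKM in WT replicate 1 and 105 in KO replicate 2. Tsga8, a spermatid gene, had 2.27 and 7.45 FPKM at P18 and 0.231 and 0.410 at P12 (4.21 ± 0.79). These X-linked genes were chosen by their level after their values were seen, except Tsga8.

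**Figure D4:**
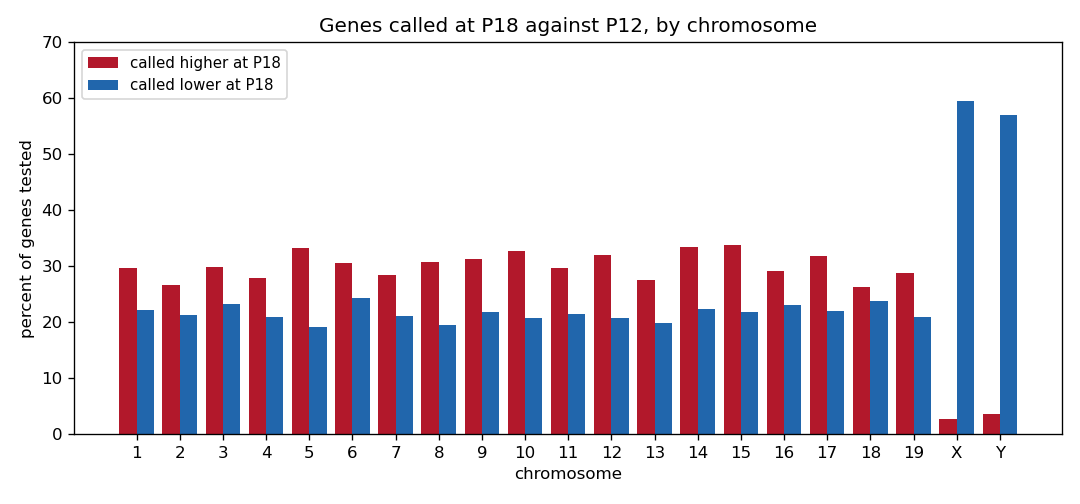
Percent of tested genes called higher and called lower at P18 against P12 on each chromosome. On the X chromosome 59.5% were lower and 2.66% higher, outside the range of the autosomes (19.1 to 24.3% lower, 26.2 to 33.8% higher).

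The genes with the largest fall changed by less than those with the largest rise. Sel1l3, which led them, had 0.485 and 0.293 FPKM at P18 and 6.69 and 5.18 at P12 (log2 -3.69 ± 0.25, adjusted p = 0.00261). Tnfrsf12a, the receptor for the cytokine TWEAK, had 2.05 and 1.5 FPKM at P18 and 13.1 and 13.1 at P12 (-2.63 ± 0.17), and Nedd9, an adhesion scaffold, had 2.21 and 1.32 against 14.1 and 11.6 (-2.63 ± 0.23). Dlk1, a membrane protein of immature cells, had 2.15 and 1.92 FPKM at P18 and 12.4 and 11.9 at P12 (-2.32 ± 0.11). The glutamate transporter gene Slc1a6, Hoxb9, the matrix proteoglycan gene Bcan, Shisa8, Pdlim4 and the potassium channel gene Kcnt1 fell by 2.29 to 2.80, as did Mir196a-1 (-2.80 ± 0.43). That last value is for the locus in a poly(A) library and not for the mature microRNA.

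Among abundant transcripts, Txnip, an inhibitor of thioredoxin, had 81.8 and 72.6 FPKM at P18 and 198 and 196 at P12 (log2 -1.10 ± 0.09, adjusted p = 0.00277). Nrbp2, Cnn3 and Eid1 fell by 1.41 to 1.63. The abundant genes that rose past 2-fold, beside Ldhc and Rsph1, were Tuba3a, Tuba3b and Calm2. Tuba3b, an alpha tubulin of the testis, had 675 and 695 FPKM at P18 and 139 and 152 at P12 (2.50 ± 0.14), and calmodulin gene Calm2 had 707 and 681 against 313 and 343 (1.34 ± 0.12). Tuba3a and Tuba3b are near-identical, so reads may have been split between them.

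Sertoli cells, which nurse the germ cells and stop dividing before puberty, gave lower values at P18. Of 26 genes 20 fell (76.9%, against 23.0% of all genes) and 1 rose, with a median of -0.71. Kitl, the ligand of the KIT receptor on spermatogonia, had 13.8 and 11.4 FPKM at P18 and 34.7 and 33.8 at P12 (log2 -1.19 ± 0.09, adjusted p = 0.00274). Gdnf, the ligand of the RET and GFRA1 receptors, had 0.896 and 0.605 FPKM at P18 and 3.03 and 2.80 at P12 (-1.71 ± 0.23, adjusted p = 0.00509). Amh, the hormone of immature Sertoli cells, had 15.6 and 9.95 FPKM at P18 and 35.2 and 29.7 at P12 (-1.11 ± 0.19), and the gap junction gene Gja1 fell by 0.90 (adjusted p = 0.00365). The ligand gene Gdnf and the receptor genes Ret and Gfra1 were thus all called lower.

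The exception was Trf, the iron carrier transferrin, with 9.80 and 23.8 FPKM at P18 and 6.47 and 5.84 at P12 (log2 1.75 ± 0.49, adjusted p = 0.0358). Transferrin is also a major liver product, and the higher value is that of the library with liver transcripts. The call of Trf was lost without P12 replicate 1 or replicate 2 (adjusted p = 0.0573 and 0.0642), and its change was 0.84 without the KO-labelled P18 library. Relative to all genes the Sertoli median was -0.68. It was -0.65 without P12 replicate 1 and -0.66 without P12 replicate 2. Fewer Sertoli genes were called lower in both of these fits, as over all genes. Against a 2-fold change 1 was called lower.

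Genes of Leydig cells, which make androgen, were called in both directions at shares near those of all genes. Of 13 tested 3 rose (23.1%, against 28.9% of all genes) and 4 fell (30.8%, against 23.0%), with a median of -0.20, so the counts are no result about the list. Hsd3b6, the steroid dehydrogenase of adult Leydig cells in the mouse, had 32.5 and 20.5 FPKM at P18 and 6.44 and 4.07 at P12 (log2 2.57 ± 0.29, adjusted p = 0.00387), and Insl3 had 37.6 and 28.2 against 11.9 and 14.8 (1.55 ± 0.18). Hsd17b3, which makes testosterone and marks adult cells late, had 4.55 and 2.63 FPKM at P18 and 10.6 and 11.5 at P12 (-1.38 ± 0.25, adjusted p = 0.0109). Cyp17a1 had 6.18 and 4.31 FPKM at P18 and 3.16 and 0.887 at P12 and was not called, but it rose by 2.80 without P12 replicate 1 (adjusted p = 0.00215). In that fit 4 genes of the list rose and 2 fell, and without P12 replicate 2, 2 rose and 3 fell with a median of 0.01.

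Other somatic lists were lower or near the level of all genes. Of 17 peritubular and stromal genes 8 fell (47.1%, against 23.0% of all genes) and 0 rose (median -0.60). Among them were Tcf21 (log2 -1.30 ± 0.16), a factor of interstitial progenitors, and Pdgfra (-1.19 ± 0.10). Of 10 endothelial genes tested 4 fell (40.0%) and 0 rose (median -0.72). Cdh5 (log2 -0.88 ± 0.14), Tek and Pecam1 were among those that fell. The calls of Tek and Pecam1 were lost without P12 replicate 2 (adjusted p = 0.254 and 0.20) and without the KO-labelled P18 library (0.102 and 0.0657), and that of Pecam1 also without the WT-labelled one (0.053). Of 11 macrophage genes 1 rose (9.09%, against 28.9% of all genes), Mrc1 (0.65 ± 0.13). The median of 0.09 turned to -0.14 with total counts alone. Without P12 replicate 1 or replicate 2 Mrc1 was not called (adjusted p = 0.118 and 0.0517).

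Genes of erythroid cells differed between libraries of an age. Of 5 tested 3 rose, Alas2 (log2 1.48 ± 0.36), Hba-a1 and Hba-a2 (both 0.92). Hbb-bs overlapped between ages, with 105 and 54.8 FPKM at P18 and 46.2 and 72.9 at P12. All 3 calls were lost without P12 replicate 1 (adjusted p up to 0.127), that of Hba-a2 also without either P18 library, and globin genes share reads with near-identical copies. Relative to all genes the peritubular median was -0.57, then -0.67 without P12 replicate 1 and -0.44 without P12 replicate 2. The endothelial one was -0.69, then -0.60 without P12 replicate 2 and -0.57 without the KO-labelled P18 library. Fewer members of both lists were called lower without either P12 library, and fewer endothelial ones without the KO-labelled P18 library.

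The m6A machinery, of which ALKBH5 is an eraser, had single members called in both directions. Of 22 other genes tested 4 rose (18.2%, against 28.9% of all genes) and 3 fell (13.6%, against 23.0%), and whether these shares differ was not tested. The median of 0.03 turned to -0.21 with total counts alone, where the median of all genes was -0.27. Igf2bp3, a reader, had 3.29 and 4.96 FPKM at P18 and 1.37 and 1.54 at P12 (log2 1.78 ± 0.29, adjusted p = 0.00826). Meioc, which works with the reader Ythdc2 to keep germ cells in meiosis, rose by 1.09 ± 0.17, and Cbll1, a writer component, by 1.05 ± 0.19. Ythdc2 itself rose by 0.50 ± 0.10. Rbmx, Igf2bp1 and the writer subunit gene Wtap fell by 0.80, 0.79 and 0.53. The calls of Ythdc2 and Wtap were lost without either P12 library (adjusted p up to 0.156 and 0.143).

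The catalytic writer, its partner and the other eraser were not called. Mettl3, the catalytic writer, had 6.33 and 5.41 FPKM at P18 and 8.28 and 7.74 at P12 (log2 -0.20 ± 0.11, adjusted p = 0.172), and its partner Mettl14 had 4.95 and 4.19 against 6.48 and 6.59 (-0.26 ± 0.10, adjusted p = 0.0753). Fto, the eraser related to ALKBH5, had 4.15 and 5.18 FPKM at P18 and 4.25 and 4.02 at P12 (0.45 ± 0.19, adjusted p = 0.106). A p that misses the threshold does not show that these levels are equal. Called members numbered 9 higher and 5 lower without the WT-labelled P18 library, where 5404 and 4785 of all genes were called, 5 and 5 without the KO-labelled one, and 3 and 1 without P12 replicate 1. The call of Igf2bp1 was lost without P12 replicate 1 (adjusted p = 0.0603). Mettl3, Mettl14 and Fto were quoted for their role.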

How the data were processed

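Poly(A) RNA of whole testis was sequenced in paired reads from dUTP libraries, which keep the strand, per the labels' protocols. GRCm38, StringTie 2.1.6, HISAT2 2.2.1 and cutadapt 1.9 are listed in the submitters' processing notes. The deposited table holds, for 38163 genes, an FPKM value from the authors and a raw count per library. The tool and strand setting of counting are not given in the sources used here, so overlapping genes and near-identical copies are uncertain.

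Libraries were chosen by Alkbh5 over 1 FPKM, and grouped by age. Members, gene lists and pairs were chosen with earlier results of these data known. Genes with at least 1 FPKM in 2 of 4 libraries were tested on the deposited counts with edgeR 4.0.16 (R 4.3.3): TMM, quasi-likelihood F-test, two-sided, Benjamini-Hochberg over all genes tested, 2 residual degrees of freedom. SE was computed as the log2 fold change over the root of F. The stricter count used normalized log2 counts with a prior count of 2. The fit was tested on simulated data. Alternatives used limma 3.58.1 on log2(FPKM + 1) or log2(FPKM + 0.1), DESeq2 1.42.0, other scalings, filters, designs and each library left out.

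Named genes were the 12 higher and 12 lower with the largest fold change past 2-fold in both P18 libraries at 5 FPKM or more with a proper symbol, the 5 most abundant of each, 5 per list by size of change, and all pairs. Of 422 list genes 416 were in the table. Other genes are quoted for their role or after their values were seen. Of the named genes 2 are not reported here.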

Additional observations from a re-analysis of the deposited data

Results flagged for a closer look

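In 3 hepatocyte genes the libraries labelled WT, as a group, moved one way from P12 to P18 and those labelled KO the other. Changes are log2 values of P18 minus P12 within each label, with the KO label first. They were 3.11 and -0.92 for Hpx, a difference of 4.03. For Gnmt they were 2.78 and -0.82 (difference 3.60), and for Rbp4 1.23 and -0.50 (difference 1.73). These groups take in libraries that are not part of the main test, and the difference was not tested.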

How the results depend on the processing

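Counts of genes called moved by over 1.5 times in these cases. Without a filter on low values 1503 genes were lower at P18. With at least 1 FPKM required in all 4 libraries, 1144 genes rose and 172 fell past 2-fold in both P18 libraries. A test against a 2-fold change (glmTreat) called 1973 higher and 87 lower, and the same 87 passed the stricter count for lower genes. The comparison of the groups labelled WT called 0 and 0. The 2-fold condition of the stricter count used the normalized counts of the main fit under every alternative. Whether that condition depends on the scaling was thus not tested. Leaving out each library in turn gave 2896 to 5404 genes higher and 853 to 4785 lower. The stricter count ran from 2438 to 3176 higher and from 347 to 1099 lower. Its upper ends, 3176 and 1099, came from the fit without the WT-labelled P18 library. There it held genes to the KO-labelled P18 library only, so these are not counts of genes past 2-fold in both P18 libraries. When a library is left out, the lone library of that age is assumed to vary like the other age. Hpx, not called with all 4 libraries, was called lower without the KO-labelled P18 library (-1.76, adjusted p = 0.0280) and higher without the WT-labelled one (2.945). No gene called with all 4 libraries was called in the other direction under any alternative run. DESeq2 called 5046 higher and 3859 lower, limma on log2(FPKM + 1) 3605 and 5359, and a fit of all 8 libraries 5158 and 4370.

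With the replicate number as a block 4080 genes were higher and 2703 lower. The labels do not say that numbers pair animals, and the replicate differences of the ages correlated at -0.16 across genes, so the block is no part of the main test. With the numbers crossed, a choice made after seeing the data, 4629 were higher and 3639 lower.

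With 2 libraries per age, small falls depend on both P12 libraries, and genes near 0 FPKM at both ages were not tested. The P18 group joins libraries of both labels, so label, library and stage reached cannot be told apart within it. Total counts ran from 58417668 to 66080256.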
